A study of Mus musculus with 6 samples.

Results

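The genes described here are 10 genes of tissue residency grouped with Itgae, taken by symbol from the table of 14051 listed genes: Itgae, Itga1, Cd69, Cxcr6, Zfp683, Runx3, Ahr, Rgs1, Rgs2 and Tgfbr2. Of these 10, 9 were measured and tested, and Zfp683, which encodes the residency transcription factor HOBIT, was not analysed here. Bulk RNA-Seq covered 6 libraries of donor CD8+ T cells, 3 GC-treated and 3 vehicle-treated. GC-treated B6D2F1 recipients were given dexamethasone, a synthetic glucocorticoid (GC), at 5 mg/kg/day i.p. between day -1 and day 5 around the transplant, and vehicle-treated B6D2F1 recipients were given methyl β-cyclodextrin, the carrier, over the same days. All recipients were irradiated and grafted with CD3+ T cells that carried the B6.CD45.1 donor mark, and on day 5 the donor CD8+ T cells of the BM that an i.v. anti-CD45 antibody had reached, hence those inside vessels, were sorted. The cells are thus a circulating fraction sampled from BM and not cells retained in an epithelium. BM was pooled from several mice per group, it is not stated whether each library had its own pool, and p-values measure only the spread between these libraries, which may be technical.

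Resident memory T cells stay in a tissue instead of returning to the blood. On CD8+ T cells, TGF-β received through its receptor is a known inducer of αE integrin, RUNX3 and HOBIT are transcription factors of the residency programme, and CD69 holds cells in tissue by removing the egress receptor S1PR1 from the surface. CXCR6 keeps T cells near cells that carry CXCL16, and the aryl hydrocarbon receptor AHR is known for maintaining T cells in skin and gut epithelium.

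Reads on listed genes numbered 67887570 to 76888118 per GC-treated library and 60949593 to 64801008 per vehicle-treated library. The values are normalized counts, the reads of a gene divided by 1 size factor per library, and fold changes are log2 differences of the normalized count + 1, GC-treated minus vehicle-treated, from limma over 11649 tested genes. The 14 measured CD8 T cell identity genes summed to 678809 to 788342 normalized counts in GC-treated and 668883 to 723563 in vehicle-treated libraries. Most of these genes are shared by all T cells. Of the CD8 chains, Cd8a had 68730 to 93850 in GC-treated and 63285 to 84617 in vehicle-treated libraries. Cd8b1 had 86959 to 109280 in GC-treated and 86287 to 98550 in vehicle-treated libraries. Cd4 had only 86.3 to 164 in GC-treated and 97.1 to 178 in vehicle-treated libraries. The labelled cell type was thus borne out by Cd8a and Cd8b1 beside Cd4. The 6 measured of 10 B cell markers summed to 975 to 1286 in GC-treated and 897 to 1247 in vehicle-treated libraries, and the 6 measured of 8 erythroid markers to 307 to 378 in GC-treated and 407 to 818 in vehicle-treated libraries. Libraries were compared across the 11649 genes by their deviations from each gene's mean. These deviations cancel out over the libraries of a gene, so correlations between libraries lean negative by construction. GC-treated 1 had correlations of -0.269 and -0.348 with GC-treated 2 and 3 but of -0.0445 and 0.0607 with vehicle-treated 1 and 2. Vehicle-treated 3 had -0.235, -0.107 and -0.176 with GC-treated 1, 2 and 3 and -0.188 and -0.174 with vehicle-treated 1 and 2. The values of vehicle-treated 3 with its own group thus lay within the range of those with the other group. These correlations are across genes, which are not independent replicates, and the log2 fold change of each member without GC-treated 1 and without vehicle-treated 3 is given beside its result.

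None of the 9 residency genes passed an adjusted p of 0.05 in limma, which called 0% of all tested genes, and none did in edgeR or DESeq2 on the recovered reads. At an unadjusted p under 0.05 there were 2 members, Itga1 and Cd69, against 7.19% of all tested genes. By direction, that was 1 member with a positive value (Cd69, background 2.12%) and 1 with a negative value (Itga1, background 5.07%). Cd69 was also the 1 member whose GC-treated libraries all lay above the vehicle-treated ones, which 6.4% of all tested genes did, and Itga1 the 1 member whose GC-treated libraries all lay below, which another 6.4% did. Counts of 1 or 2 among 9 genes are too few to be set apart from these background shares. Of the log2 fold changes, 6 were positive and 3 negative, with a median of 0.117 against -0.0079 over all tested genes. The exact two-sided permutation test over 3 against 3 libraries cannot give a p under 0.1, and adjusted p from limma ran between 0.62 for Itga1, Cd69 and Rgs1 and 0.993 for Ahr. In bulk RNA, fewer cells that express a gene and less RNA per cell cannot be told apart.

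**Figure D1:**
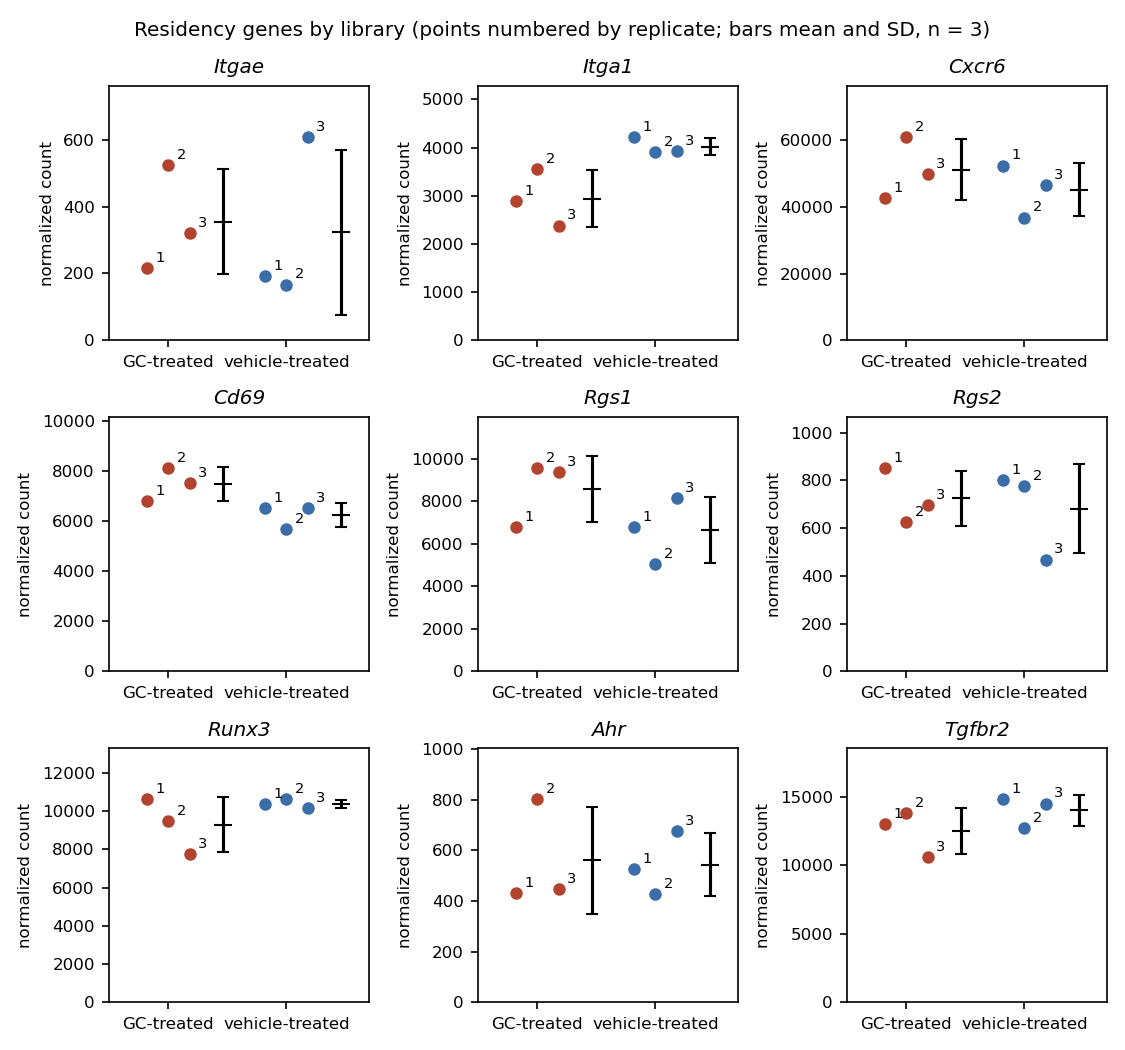
Normalized count of 9 residency genes (y axis, from 0) in GC-treated (left) and vehicle-treated (right) libraries, with points numbered by replicate and bars for the mean and SD of 3 libraries. Cd69 lay higher in all 3 GC-treated libraries and Itga1 lower, and the groups of the other 7 genes overlapped.

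The promoters of the members, as RefSeq gives them (table build GRCm38.p6, each matched once and exactly to GRCm39), cover 300 bases, with 250 bases before the start. RefSeq entries matched 5 members with 6 promoters. The promoter of Itga1 is shown because its groups did not overlap, that of Tgfbr2 because its highest and lowest libraries were those of Itga1, and that of Rgs2 because its order ran against that of Itgae. Capitals mark motif matches on either strand: CAGAC (SMAD) or its reverse complement GTCTG, and TNGCGTG (AHR), with no overlap between them here.
Itga1, chr13:115238451-115238750, minus strand: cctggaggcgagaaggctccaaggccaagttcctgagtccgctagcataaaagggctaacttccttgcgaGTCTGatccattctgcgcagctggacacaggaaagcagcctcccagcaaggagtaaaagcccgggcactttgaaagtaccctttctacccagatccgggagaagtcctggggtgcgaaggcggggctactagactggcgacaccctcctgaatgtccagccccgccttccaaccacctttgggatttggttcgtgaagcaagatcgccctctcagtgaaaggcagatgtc
Tgfbr2, chr9:116004382-116004681, minus strand: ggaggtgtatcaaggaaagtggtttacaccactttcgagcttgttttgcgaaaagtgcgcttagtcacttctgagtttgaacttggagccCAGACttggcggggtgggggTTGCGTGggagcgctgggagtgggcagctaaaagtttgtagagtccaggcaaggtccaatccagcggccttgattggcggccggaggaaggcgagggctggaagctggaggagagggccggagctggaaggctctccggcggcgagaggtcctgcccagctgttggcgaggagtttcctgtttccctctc
Rgs2, chr1:143879838-143880137, minus strand: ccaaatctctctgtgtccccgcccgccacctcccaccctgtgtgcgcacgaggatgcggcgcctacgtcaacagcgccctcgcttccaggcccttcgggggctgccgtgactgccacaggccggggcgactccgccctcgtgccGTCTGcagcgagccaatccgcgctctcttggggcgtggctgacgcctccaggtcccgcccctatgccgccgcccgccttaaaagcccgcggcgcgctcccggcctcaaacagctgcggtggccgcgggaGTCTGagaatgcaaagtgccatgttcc
The SMAD letters were present in 6 of 6 member promoters and in 49.5% of 32544 promoters of the same length. The AHR letters were in 1 of 6, that of Tgfbr2, against 5.1% of all promoters. The RUNX letters TGTGGT were in 2 of 6, those of Runx3 and Cxcr6, against 16.7%, and in Cxcr6 they overlap a SMAD match. The glucocorticoid receptor motif AGAACA was in 0 of 6, against 18.9%. A match of letters is not a site of binding, and its absence says only that these letters are not in this window.

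Itgae encodes the αE chain (CD103), the part of the αEβ7 heterodimer that recognises E-cadherin on epithelial cells. It lies on chr11:72981409-73039917 of GRCm39 on the plus strand, and its exons overlap no other annotated gene. Itgae had 216, 525 and 321 normalized counts in GC-treated 1, 2 and 3, against 193, 166 and 608 in vehicle-treated 1, 2 and 3. The highest library, vehicle-treated 3, and the lowest, vehicle-treated 2, were both vehicle-treated, so the vehicle-treated values spanned those of the GC-treated group on both sides. The means were 354 ± 157 in GC-treated and 323 ± 248 in vehicle-treated libraries (SD, n = 3 each), with a log2 fold change of 0.30 ± 0.49 (SE), a 95% interval of -0.82 to 1.42 and an adjusted p of 0.83 from limma. The exact two-sided permutation test gave p = 0.7.

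Over the 6 libraries the highest value was 3.65 times the lowest, while the counting error of the shallowest value, 154 reads in vehicle-treated 2, was 8.06%, a figure that takes reads as independent molecules although the cDNA was amplified. Its SD on the log2 scale was 0.778, against a median of 0.165 over the 9683 tested genes with a mean of at least 100 normalized counts, and 1.2% of those genes had an SD as large or larger. These genes were not matched to Itgae in level, and most had higher counts. The log2 fold change was 0.60 without GC-treated 1, 0.88 without vehicle-treated 3, -0.03 without GC-treated 2 and -0.05 without vehicle-treated 2, so its sign changed with single libraries. The value without vehicle-treated 3 had an adjusted p of 0.692 from limma.

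Itgb7, the integrin chain that αE needs for surface expression, did not follow Itgae. It had 63290, 71633 and 65413 normalized counts in GC-treated libraries, against 68551, 77548 and 73427 in vehicle-treated libraries. Itgae amounted to 0.342%, 0.733% and 0.490% of Itgb7 in GC-treated 1, 2 and 3, against 0.282%, 0.215% and 0.828% in vehicle-treated 1, 2 and 3. The ratio kept the order of the Itgae counts. Itgb7 had a log2 fold change of -0.13 ± 0.08 (SE). Cdh1, which encodes E-cadherin and is mainly epithelial, stood at 38.7 to 62.3 in GC-treated and 55.6 to 85.5 in vehicle-treated libraries, with -0.53 ± 0.38 (SE).

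Regulatory T cells and some dendritic cells also carry αE. The 8 measured markers of CD4 and regulatory T cells summed to 12548 to 14539 normalized counts in GC-treated and 11615 to 17149 in vehicle-treated libraries, and none of them was at 0. Most of each sum was Il2ra, at 9227 to 10506 in GC-treated and 7270 to 13132 in vehicle-treated libraries, while Cd4 stayed at the low level given above. Among them Foxp3, the transcription factor of regulatory T cells, had 172, 407 and 524 in GC-treated libraries, against 312, 212 and 595 in vehicle-treated libraries. Foxp3, like Itgae, was highest in vehicle-treated 3, but it was lowest in GC-treated 1. Cd4 and Il2ra were also highest in vehicle-treated 3, at 178 and 13132. The other markers of the list were not. Ikzf2 was highest in GC-treated 1 (459), Tnfrsf4 in GC-treated 3 (1826) and Zbtb7b in vehicle-treated 1 (552). Izumo1r and Cd40lg were highest in vehicle-treated 2 (1349 and 265). The 8 measured of 12 dendritic cell markers summed to 25204 to 28643 in GC-treated and 19010 to 27672 in vehicle-treated libraries, with Clec9a at 0 in 5 of the 6 libraries and Flt3 at 0 in vehicle-treated 1 and 3. Irf8 and Itgax made up most of each sum. H2-Ab1, an MHC class II chain on the same list, had 774, 1402 and 2050 in GC-treated libraries, against 630, 492 and 1674 in vehicle-treated libraries. Irf8, the list's member with the highest counts, had 15020, 17399 and 18597 in GC-treated libraries, against 14355, 11797 and 16691 in vehicle-treated libraries. Both were highest in GC-treated 2 and 3 and vehicle-treated 3, the libraries with the most Itgae. So was Xcr1, with GC-treated 3 barely above GC-treated 1 (580 against 576). Others on the list did not share that order. Itgax had 8688, 9046 and 5941 in GC-treated libraries, against 9820, 6111 and 8535 in vehicle-treated libraries. GC-treated 2 was the lowest library for Batf3, at 32.7, and Zbtb46 had 50.6 there, against 133 in GC-treated 3. The 11 measured of 15 neutrophil markers summed to 1887, 12797 and 9063 in GC-treated libraries, against 873, 485 and 4498 in vehicle-treated libraries, with Mmp8 and Retnlg at 0 in vehicle-treated 1 and 2 and Ltf at 0 in vehicle-treated 1. The granule genes of early neutrophil precursors on this list did not share that order: Elane had 177, 25.8 and 240 in GC-treated libraries, against 170, 40.0 and 363 in vehicle-treated libraries, and Mpo and Prtn3 were highest in vehicle-treated 3. GC-treated 2 and 3 and vehicle-treated 3 were thus the highest libraries for both the neutrophil sum and Itgae. Their order differed, with the neutrophil sum highest in GC-treated 2 and Itgae in vehicle-treated 3. Of the 11 neutrophil markers, 9 had positive and 2 negative log2 fold changes, and none was called. At an unadjusted p under 0.05 from limma there were 5, all positive, against 2.12% of all tested genes. The part of such cells in the Itgae values was not tested.

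Of the 9682 other genes with a mean of at least 100, those whose log2 values were most like Itgae over the 6 libraries were Ccnd2 (Pearson r = 0.975), Slc2a1 (r = 0.973) and Nck2 (r = 0.973). The 6 points share their libraries and size factors, and 82 genes had r above 0.9 while 83 had r below -0.9. Ccnd2, a D-type cyclin of the G1 phase, had 15672, 18824 and 17599 normalized counts in GC-treated libraries, against 15156, 14404 and 18706 in vehicle-treated libraries. All 3 genes varied over a far narrower range than Itgae. Slc2a1, the glucose transporter GLUT1, ran between 3690 and 3945 in GC-treated and 3542 and 4122 in vehicle-treated libraries. Nck2, an adaptor of receptor signalling, ran between 3791 and 4343 in GC-treated and 3370 and 4528 in vehicle-treated libraries.

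Itga1 encodes the α1 chain (CD49a), which pairs with β1 and binds collagen IV. It had 2888, 3558 and 2384 normalized counts in GC-treated libraries, against 4223, 3913 and 3923 in vehicle-treated libraries. Every GC-treated library lay below every vehicle-treated one, and the vehicle-treated libraries lay close together. The means were 2944 ± 589 in GC-treated and 4020 ± 176 in vehicle-treated libraries (SD, n = 3 each). Itga1 had a log2 fold change of -0.47 ± 0.14 (SE), with a 95% interval of -0.79 to -0.14 and an adjusted p of 0.62 from limma, and the exact permutation test gave p = 0.1, the smallest it can give. Leaving out each library in turn gave -0.61 to -0.33, with -0.46 without GC-treated 1 and -0.48 without vehicle-treated 3. The gene lies on chr13:115089632-115238677 on the minus strand, its promoter held 1 SMAD match and no other motif searched, and its exons overlap those of Mocs2 and of a lncRNA on the plus strand and a predicted gene on the minus strand. Strand is not marked by the library kit, so reads from the stretches shared with them cannot be told apart. Itgb1, the β1 partner, had 79259, 59316 and 57962 in GC-treated libraries, against 70951, 95196 and 64276 in vehicle-treated libraries. The Itgb1 groups overlapped, with a log2 fold change of -0.22 ± 0.16 (SE).

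**Figure D2:**
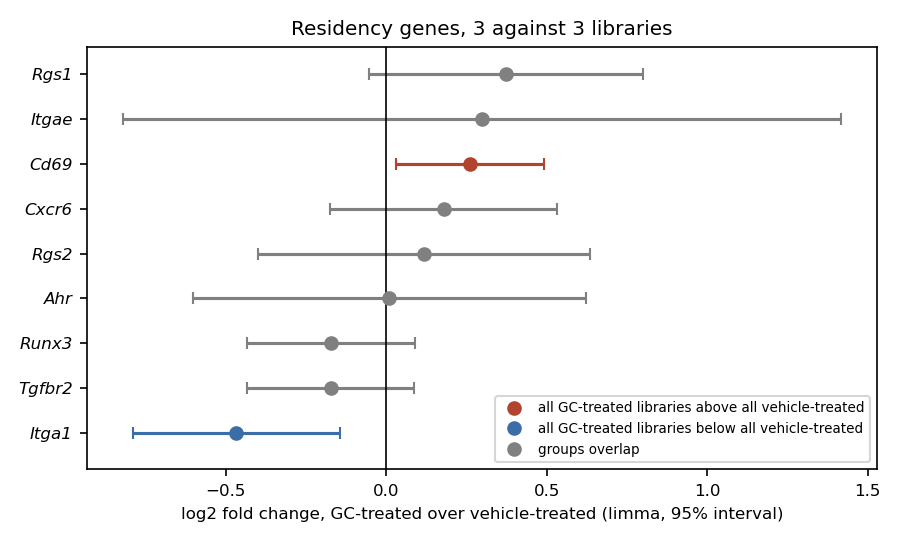
Log2 fold change of each residency gene, GC-treated over vehicle-treated (x axis), with 95% intervals from limma over 3 against 3 libraries. The intervals of Itga1 (-0.79 to -0.14) and Cd69 (0.029 to 0.49) lie on 1 side of 0, and that of Itgae (-0.82 to 1.42) is the widest.

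Cxcr6 (chr9:123635534-123640825, plus strand), the chemokine receptor for CXCL16, had the highest counts of the members. It had 42711, 61035 and 49882 normalized counts in GC-treated libraries, against 52380.4, 36800.1 and 46491 in vehicle-treated libraries. The groups overlapped, with the highest value in GC-treated 2 and the lowest in vehicle-treated 2. Its log2 fold change was 0.18 ± 0.16 (SE), with a 95% interval of -0.17 to 0.53, an adjusted p of 0.70 from limma and an exact permutation p of 0.5. It was 0.30 without GC-treated 1, 0.21 without vehicle-treated 3 and 0.04 without vehicle-treated 2. Cxcl16, its ligand, is mainly a product of myeloid and stromal cells, and had 46.8, 43.7 and 43.2 in GC-treated libraries, against 99.2, 82.2 and 60.5 in vehicle-treated libraries. All 3 GC-treated libraries lay below the vehicle-treated ones at this low level, with an adjusted p of 0.62 from limma. The 11 measured of 13 monocyte and macrophage markers summed to 2226 to 3037 in GC-treated and 3090 to 3769 in vehicle-treated libraries, and their part in the Cxcl16 values was not tested.

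Cd69 (chr6:129244288-129252399, minus strand) encodes the early activation antigen. It had 6778, 8113 and 7514 normalized counts in GC-treated libraries, against 6506, 5667 and 6515 in vehicle-treated libraries. Every GC-treated library lay above every vehicle-treated one, with GC-treated 1 only just above. The means were 7468 ± 669 in GC-treated and 6229 ± 487 in vehicle-treated libraries (SD, n = 3 each). Cd69 had a log2 fold change of 0.26 ± 0.10 (SE), with a 95% interval of 0.029 to 0.49 and an adjusted p of 0.62 from limma, and the exact permutation test gave p = 0.1. It was 0.33 without GC-treated 1, 0.29 without vehicle-treated 3 and 0.19 at the least, without vehicle-treated 2.

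Rgs1 and Rgs2 encode regulators of G protein signalling, which shorten the signal of chemokine and other G protein coupled receptors. They are near neighbours on chromosome 1, at chr1:144118034-144124980 for Rgs1 and chr1:143875076-143879899 for Rgs2, both on the minus strand. Rgs1 had 6771, 9573 and 9356 normalized counts in GC-treated libraries, against 6797, 5041 and 8144 in vehicle-treated libraries. GC-treated 1 lay below vehicle-treated 1, and the groups overlapped. The log2 fold change of Rgs1 was 0.37 ± 0.19 (SE), with a 95% interval of -0.053 to 0.80, an adjusted p of 0.62 from limma and an exact permutation p of 0.3. It was 0.53 without GC-treated 1, 0.53 without vehicle-treated 3 and 0.19 without vehicle-treated 2.

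Rgs2 had 853, 626 and 698 normalized counts in GC-treated libraries, against 803, 776 and 468 in vehicle-treated libraries. Its order ran nearly opposite to that of Itgae: vehicle-treated 3 was lowest for Rgs2 and highest for Itgae. The log2 fold change was 0.12 ± 0.23 (SE), with an adjusted p of 0.858 from limma and an exact permutation p of 0.8, and it was -0.0053 without GC-treated 1 and -0.13 without vehicle-treated 3. The ratio of Rgs1 to Rgs2 counts, which is not adjusted for length, was 7.94, 15.3 and 13.4 in GC-treated libraries, against 8.47, 6.49 and 17.4 in vehicle-treated libraries. It was lowest in GC-treated 1 and vehicle-treated 1 and 2. An annotated antisense RNA overlaps Rgs2 exons, so its counts are less certain than those of Rgs1.

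Runx3, the RUNX factor that silences Cd4 in CD8+ T cells, had 10633, 9453 and 7763 normalized counts in GC-treated libraries, against 10357, 10603 and 10152 in vehicle-treated libraries. GC-treated 1 was the highest of all 6 and GC-treated 3 the lowest, while the vehicle-treated libraries differed by little. Runx3 had a log2 fold change of -0.17 ± 0.12 (SE), with a 95% interval of -0.43 to 0.09, an adjusted p of 0.638 from limma and an exact permutation p of 0.4. It was -0.28 without GC-treated 1, -0.19 without vehicle-treated 3 and -0.05 without GC-treated 3. The gene lies on chr4:134847952-134905301 on the plus strand.

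Ahr (chr12:35547973-35585057, minus strand) encodes the ligand-activated receptor. An annotated lncRNA on the other strand overlaps its exons, so its counts are uncertain to that extent. It had 432, 803 and 447 normalized counts in GC-treated libraries, against 525, 428 and 676 in vehicle-treated libraries. GC-treated 2 and vehicle-treated 3 were its highest libraries, as they were for Itgae. The means were 560 ± 210 in GC-treated and 543 ± 125 in vehicle-treated libraries (SD, n = 3 each), with a log2 fold change of 0.01 ± 0.27 (SE), a 95% interval of -0.60 to 0.62 and an adjusted p of 0.993 from limma. The exact permutation p was 0.9. The log2 fold change of Ahr was 0.17 without GC-treated 1 and 0.18 without vehicle-treated 3, and its sign changed without GC-treated 2 (-0.28), vehicle-treated 1 (-0.0023) or vehicle-treated 2 (-0.15).

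Tgfbr2 (chr9:115913361-116004800, minus strand, with an annotated antisense lncRNA over its exons) encodes the receptor chain that binds TGF-β. It had 13012, 13800.0 and 10601 normalized counts in GC-treated libraries, against 14832, 12715 and 14494 in vehicle-treated libraries. GC-treated 3 was the lowest, and GC-treated 1 and 2 lay above vehicle-treated 2. The log2 fold change was -0.17 ± 0.11 (SE), with a 95% interval of -0.43 to 0.09, an adjusted p of 0.634 from limma and an exact permutation p of 0.3. Leaving out each library gave -0.25 to -0.06, with -0.21 without GC-treated 1 and -0.15 without vehicle-treated 3. Both Tgfbr2 and Itga1 were lowest in GC-treated 3 and highest in vehicle-treated 1.

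**Figure D3:**
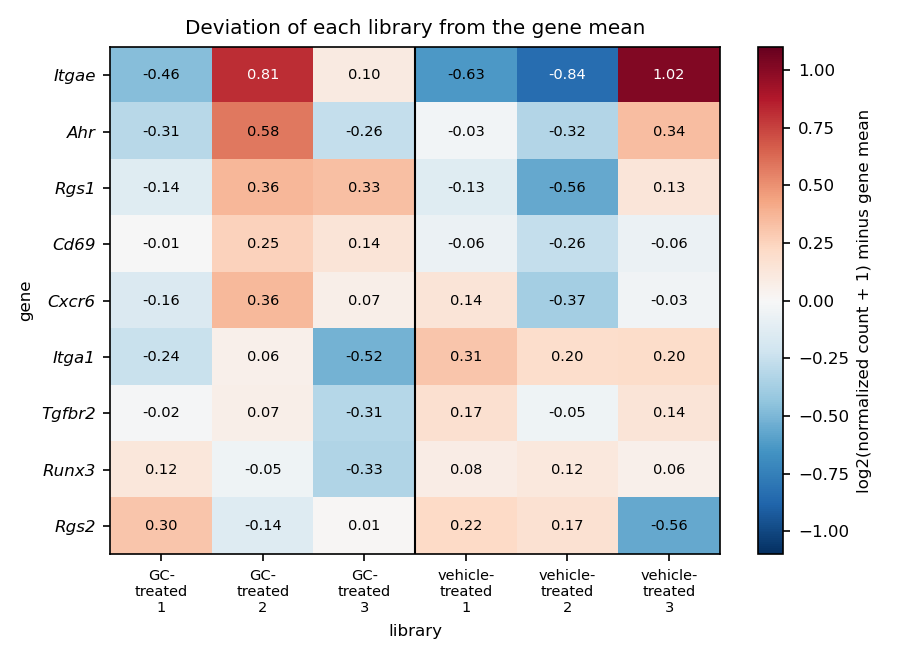
Deviation of each library from the gene's mean, on the log2(normalized count + 1) scale, for 9 residency genes (rows) in 3 GC-treated libraries (left of the line) and 3 vehicle-treated libraries (right). Itgae stands at 0.81 in GC-treated 2, against 1.02 in vehicle-treated 3, while Rgs2 stands at -0.14 in GC-treated 2, against -0.56 in vehicle-treated 3.

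Levels can be compared between genes only per length. Per kb of annotated exon, and as the mean over 6 libraries with the lowest and highest, Cxcr6 stood at 24892 (18999 to 31510) normalized counts, far above Runx3 at 1960 (1548 to 2121). Tgfbr2 followed at 1506 (1206 to 1687), Rgs1 at 1096 (726 to 1378) and Cd69 at 1052 (871 to 1246). Rgs2 at 194 (129 to 235), Itga1 at 163 (112 to 198), Ahr at 89.2 (69.2 to 130) and Itgae at 54.3 (26.7 to 97.7) were the low members. Neighbours in this order overlapped in their ranges, except for Cxcr6 above Runx3 and Cd69 above Rgs2. The Itga1 exons span 21.3 kb in the annotation, so its level per kb depends on how much of them is transcribed.

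The ratio of the highest to the lowest of the 6 libraries had a median of 1.77 over the 9 members, against 1.36 over the 9683 tested genes with a mean of at least 100, a difference that was not tested. Without GC-treated 1, 4 members had an unadjusted p under 0.05 (Itga1, Cd69, Runx3 and Rgs1), with 0.139 as the smallest adjusted p of a member from limma. In that fit 966 of 11501 tested genes were under 0.05 with a positive value and 1414 with a negative one. With all libraries these were 247 and 591 of 11649, so the rise was not particular to the members. Without vehicle-treated 3, there were again 4 (Itgae, Itga1, Cd69 and Rgs1), with 0.692 as the smallest adjusted p. There, 258 of 11513 tested genes were under 0.05 with a positive value and 491 with a negative one. No member was called in any of these fits.

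Among 39 other residency genes, all tested, 15 had positive and 24 negative log2 fold changes, with a median of -0.116 against -0.0079 over all genes, of which 48.5% had positive values. For this and the lists that follow, the shares of all tested genes at an unadjusted p under 0.05 were 2.12% positive and 5.07% negative, and the lists were not tested against them. None was called, 0 had an unadjusted p under 0.05 with a positive value, and 3 with a negative one. Irf4, a transcription factor induced by T cell receptor signals, had 2827, 1745 and 2329 normalized counts in GC-treated libraries, against 3126, 3663 and 2975 in vehicle-treated libraries, with a log2 fold change of -0.52 ± 0.17 (SE). Nr4a3, a nuclear receptor gene also induced by such signals, had -0.89 ± 0.33 (SE), with overlapping groups. The genes low in residency and high in circulating cells were not on the opposite side: of 21 tested, 4 had positive log2 fold changes and 17 negative ones, with a median of -0.188 and 3 at an unadjusted p under 0.05, all negative. Il7r, the IL-7 receptor chain, had 1147, 1058 and 888 in GC-treated libraries, against 2216, 2893 and 1493 in vehicle-treated libraries, with -1.05 ± 0.22 (SE) and an adjusted p of 0.62 from limma. Klf2, which drives S1pr1, had -0.60 ± 0.20 (SE), with overlapping groups.

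Lists of the members' signalling partners and relatives held as many or more negative than positive log2 fold changes. Of 28 tested genes of TGF-β activation and signalling, 11 were positive and 17 negative, with 1 at an unadjusted p under 0.05. This was Smad3, a TGF-β signal transducer, with 5565, 4841 and 4300.4 normalized counts in GC-treated libraries, against 6664, 6709 and 6857 in vehicle-treated libraries. All GC-treated libraries lay below, with a log2 fold change of -0.47 ± 0.11 (SE) and an adjusted p of 0.62 from limma. Smurf2, a ubiquitin ligase of the pathway, had -0.28 ± 0.13 (SE). The 4 RUNX family and related genes were all negative: Runx2 at -0.41, Zbtb7b, the CD4 lineage factor, at -0.43, Runx1 at -0.09 and Cbfb, the RUNX partner, at -0.06. Of 8 tested AHR partners and targets, 4 were positive and 4 negative, among them Arnt, the dimer partner, at -0.18. Of 9 tested other RGS genes, 4 were positive and 5 negative, with Rgs8 at -1.21 and Rgs11 at -0.57, both low in level. Of 10 tested glucocorticoid target genes, 2 were positive and 8 negative, and those at an unadjusted p under 0.05 were 2 positive and 3 negative. The positive ones were Dusp1 at 0.47 ± 0.16 (SE) and Nfkbia at 0.31 ± 0.12 (SE). Fkbp5, a feedback inhibitor of the receptor, had -0.59 ± 0.17 (SE). Il7r, also on this list, had -1.05 ± 0.22 (SE). Earlier work that the paper cites describes IL-7R signalling as raised by physiological glucocorticoids, over the day and in CD4+ T cells. The cells here were CD8+ and the glucocorticoid was injected dexamethasone, so the settings are unlike. Why most of the glucocorticoid target genes were negative in GC-treated libraries was not tested. No gene of these lists was called.

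**Figure D4:**
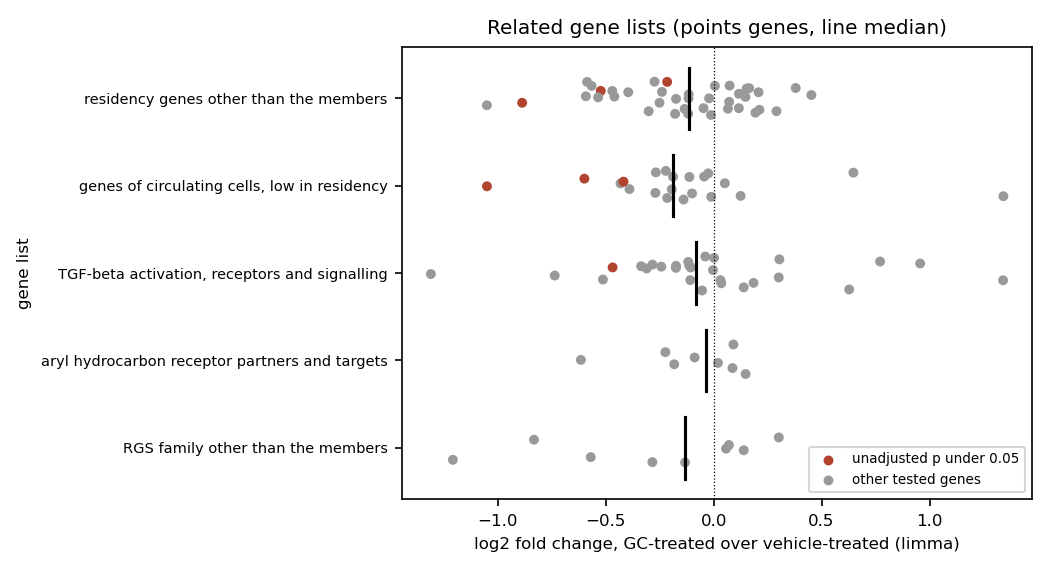
Log2 fold change, GC-treated over vehicle-treated (x axis), of each tested gene in 5 related lists, with the list's median as a line and genes at an unadjusted p under 0.05 in colour. The medians run between -0.188 for the genes of circulating cells and -0.034 for the AHR list.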

How the data were processed

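Donor CD8+ T cells of 6 libraries were profiled by RNA-Seq after SMART v4 and Nextera XT preparation, which does not mark strand. The authors aligned reads with STAR to GRCm39, took counts per gene by summarizeOverlaps and used DESeq2. According to the submitters' processing notes the tools were bcl2fastq, STAR and DESeq2 (versions: not given in the sources used here). What the authors deposited is a normalized signal for 14051 gene symbols, each library's counts divided by 1 size factor. In every library 100% of values lay within 0.001 of a whole multiple of 1 step, so reads were recovered. The step of GC-treated 2, 0.992, is too near 1 for the automatic check of whole reads to judge.

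Groups came from the sample labels. limma 3.58.1 in R 4.3.3 was run with a mean-variance trend on log2(value + 1) for 11649 genes that reached 10 in at least 3 libraries. P-values were adjusted over all of them by Benjamini-Hochberg (threshold 0.05). Alternatives were edgeR 4.0.16 and DESeq2 1.42.0 on recovered reads, TMM scaling, no filter, a pseudocount of 5, a block for the replicate number, and each library left out. The fits were also run on simulated counts with the same dispersion for every gene and no library set apart from the rest. That setting is simpler than these data, so it does not show how the fits behave on them. The members and lists were chosen with earlier results of these data known. Named genes were all members, the 2 genes with the smallest p of each list (all genes of lists of 4), the 3 genes most like Itgae, and marker genes. A gene that this rule names is not reported here. Foxp3, Cd4, Clec9a, Flt3, H2-Ab1, Mmp8, Retnlg, Elane, Mpo and Prtn3 were chosen once their values had been seen. The same holds for Xcr1, Itgax, Batf3, Zbtb46, Ikzf2, Tnfrsf4, Izumo1r, Cd40lg, Cd8a, Cd8b1, Dusp1 and Nfkbia. Gencode M39 on GRCm39, the authors' build with a newer annotation, gave the coordinates. Genes outside the table were not analysed here.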

Additional observations from a re-analysis of the deposited data

How the results depend on the processing

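Over all genes limma called 0 higher and 0 lower, and DESeq2 called 2 lower. Leaving out single libraries gave 0 to 2 higher and 0 to 43 lower, the highest counts coming without GC-treated 1. No member was called under any alternative. Itga1, Cd69, Cxcr6, Runx3, Rgs1 and Tgfbr2 kept their sign under all 12 alternatives. With all libraries, the log2 fold change of Itgae was 0.13 in edgeR and 0.13 in DESeq2, against 0.30 in limma. Leaving out single libraries gave log2 fold changes of -0.048 to 0.88 for Itgae, negative without GC-treated 2 (-0.032) and vehicle-treated 2 (-0.048). For Ahr the range was -0.28 to 0.18, negative without GC-treated 2 (-0.28), vehicle-treated 1 (-0.0023) and vehicle-treated 2 (-0.15). For Rgs2 it was -0.13 to 0.25, negative without GC-treated 1 (-0.0053) and vehicle-treated 3 (-0.13). The cause of these changes was not tested. Same-numbered libraries had correlations of 0.0627, -0.135 and 0.129, against -0.248 to 0.225 between unlike-numbered ones. The numbers thus show no sign of pairing, but such weak values cannot exclude a shared experiment. The fit with the replicate number as a block called 0 higher and 0 lower. Itga1 was its 1 member at an unadjusted p under 0.05, against 238 of 11649 genes with a positive value and 745 with a negative one. At the same limit, edgeR gave 2 members (Itga1 and Cd69), against 265 positive and 442 negative of 11649 genes. DESeq2 gave 3, with Rgs1 added, against 338 positive and 650 negative of 14034 genes. TMM scaling moved the median of all genes by -0.0019. Depth limits Itgae most, with a counting error of up to 8.06% per library.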

Other observations

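Several other genes, chosen after their values were seen, had high and low libraries much as Itgae did. Ccr9, the receptor for the intestinal chemokine CCL25, had 2465, 5203 and 5003 normalized counts in GC-treated libraries, against 2428, 3305 and 6267 in vehicle-treated libraries. P2rx7, a receptor for extracellular ATP, had 3157, 5031 and 5339.9 in GC-treated libraries, against 2861, 3736 and 5148.5 in vehicle-treated libraries. Both were highest in GC-treated 2 and 3 and vehicle-treated 3. Pdcd1, which encodes PD-1, had 19116, 8068 and 13966 in GC-treated libraries, against 20569, 30183 and 10559 in vehicle-treated libraries, and was lowest in GC-treated 2 and vehicle-treated 3, the highest libraries for Itgae. Klrg1, a receptor of short-lived effector cells, had 932, 1911 and 1821 in GC-treated libraries, against 989, 552 and 1542 in vehicle-treated libraries. These are descriptions of 6 libraries, and no test was run on them.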
